A study of Mus musculus with 18 samples.

Results

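The 76 genes described here encode the proteins of the cytosolic ribosome in mouse. They were chosen by symbol, after Ensembl gene IDs were paired with symbols. The rule took Rpl or Rps followed by a number and an optional a, x or y, together with Rplp0, Rplp1, Rplp2, Rpsa and Rps3a1, and it left out pseudogenes, Rps6k kinases and genes named as ribosomal-protein-like. Of 77 such genes in the annotation, 76 were in all 3 expression tables and Rpl24 is not analysed here. They were 42 genes of the large subunit, 31 of the small subunit and the 3 stalk genes, out of 12679 genes measured in p53WT AML at 10 h. Genes with few counts were absent from the tables as deposited. The lowest member averaged 4.17 CPM (counts scaled to library size after TMM normalization), the median member 368 CPM and the highest 2270 CPM over the 6 libraries of p53WT AML at 10 h, not scaled to gene length.

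Ribosomal proteins are made in the cytoplasm, imported into the nucleolus and assembled there on the rRNA that RNA polymerase I transcribes. RPL5 and RPL11 join the 5S rRNA in a small particle, and when ribosome assembly is blocked this particle is known to bind MDM2, the ubiquitin ligase that keeps p53 low. Most mammalian ribosomal protein mRNAs begin with a C followed by a run of pyrimidines, the terminal oligopyrimidine (TOP) tract, through which their translation follows mTORC1 activity. This makes the family a case in which protein output can change without a change in mRNA level, which is what RNA sequencing measures.

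RNA was sequenced from acute myeloid leukemia (AML) cells of C57BL/6 background driven by the MLL/ENL fusion oncogene and Nras. The leukemias, with p53 (p53WT) or without it (p53null), were grown in syngeneic C57BL/6 mice. Once leukemia was established, animals were given CX-5461, which blocks RNA polymerase I, or vehicle, and the GFP-positive leukemia cells were sorted from bone marrow. The 18 samples formed 6 groups of 3, with CX-5461 and vehicle groups of p53null AML at 10 h, and of p53WT AML at both 10 h and 72 h. The promoter that drives the oncogenes, the lesion that removes p53, the dose and the age of the mice are not stated in the labels. Nor do the labels say whether each sample came from a separate animal, so that p-values measure the spread between these samples, which may be technical.

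Counts per library were used for p53WT AML at 10 h, and the authors' edgeR results for the other 2 comparisons. The CX libraries 1, 2 and 3 held 37244725, 21578685 and 23150282 counts, and the vehicle libraries 1, 2 and 3 held 48118513, 27921504 and 22090394. All 10 markers fixed for myeloid blasts were measured, with summed levels of 17870 to 17945 CPM in CX libraries and 14198 to 17696 CPM in vehicle libraries. Markers of other marrow cells differed between the arms. The 14 measured of 18 erythroid markers summed to 477 to 689 CPM in CX libraries and to 797 to 20094 CPM in vehicle libraries, and the 10 mature neutrophil markers to 2827 to 3957 CPM in CX libraries and to 7001 to 18964 CPM in vehicle libraries. In sorted bulk samples, fewer cells of a type and less RNA per cell cannot be told apart.

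At 10 h in p53WT AML, 0 of the 76 ribosomal protein genes had a Benjamini-Hochberg adjusted p under 0.05 in edgeR's quasi-likelihood test. Over all genes 8.1% passed, 479 of them higher and 548 lower with CX-5461. At an unadjusted p under 0.05, 7 members were higher and none lower, where 31.4% of all genes reached that level in either direction. By the authors' own edgeR results 0 members reached it, where 1139 of the 12679 genes were higher and 1544 lower. Nearly all members nevertheless had a small positive log2 fold change (CX-5461 over vehicle): 72 of 76 were above 0, against 50.8% of all genes. Their median was 0.07, against 0.00 over all genes, and they ranged from -0.04 for Rpl41 to 0.25 for Rpl23a. The medians were 0.06 for the large subunit, 0.07 for the small subunit and 0.08 for the stalk genes.

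The members' share of all counts was 3.87%, 3.92% and 3.96% in CX libraries 1, 2 and 3, against 3.83%, 3.64% and 3.52% in vehicle libraries 1, 2 and 3. Every CX library was above every vehicle library, and the ratio of the means was 1.07. Vehicle library 3 was the lowest and vehicle library 1 lay close to the CX libraries. Leaving out the erythroid markers and the most counted genes kept 71 members. Their shares were 3.46%, 3.51% and 3.53% in CX libraries 1, 2 and 3, against 3.45%, 3.34% and 3.12% in vehicle libraries 1, 2 and 3. CX library 1 and vehicle library 1 were then nearly equal. The ratio of small-subunit to large-subunit counts, without the stalk genes, was 0.924 to 0.928 in CX libraries and 0.915 to 0.941 in vehicle libraries, so that the subunits kept nearly the same proportion in all 6.

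**Figure D1:**
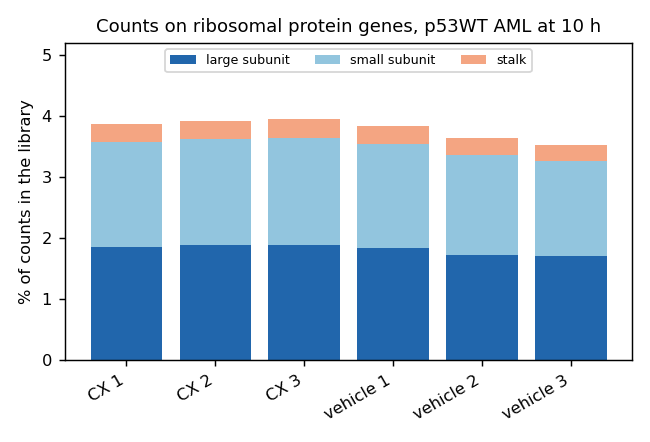
Share of each library's counts (%, y axis) on large-subunit, small-subunit and stalk genes in the 6 libraries of p53WT AML at 10 h. Stacked bars reach 3.87% to 3.96% in CX libraries and 3.52% to 3.83% in vehicle libraries.

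The spread among vehicle libraries lay largely in vehicle library 3. There, all 76 members were below their own mean over the 6 libraries, with a median deviation of -0.13 (log2), and 70 members had their lowest value. In CX libraries 1, 2 and 3 the median deviations were 0.02, 0.04 and 0.04, and in vehicle libraries 1 and 2 both were 0.02. Without vehicle library 3 the median log2 fold change of the members was 0.02, and 48 of 76 were positive. Among the vehicle libraries this one also had the lowest sums of erythroid (797 CPM) and neutrophil (7001 CPM) markers. With the erythroid level as a covariate, no member passed and the median was 0.20 (22 of all genes passed in that fit). All 76 members were then positive, and 33 had an unadjusted p under 0.05 in edgeR, against 72 and 7 in the main fit. The share of all genes at that level is not given here for the covariate fit. Erythroid sums did not overlap between the arms, so the covariate and the treatment cannot be fully told apart. The part of the neutrophil markers was not tested. The median coefficient of variation of a member was 1.84% over CX libraries (0.251% to 4.93%) and 6.04% over vehicle libraries (2.18% to 11.97%).

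**Figure D2:**
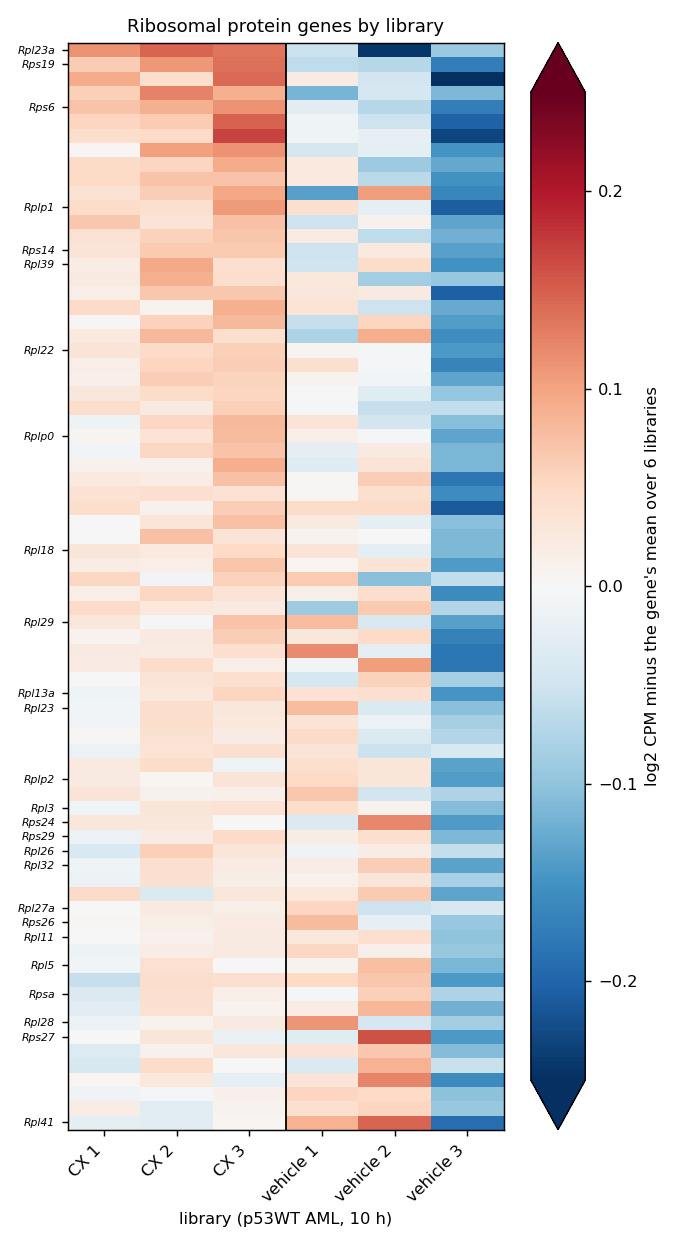
Each of the 76 genes (rows, ordered by log2 fold change, with some named) in the 6 libraries of p53WT AML at 10 h, CX libraries left of the black line, coloured by log2 CPM minus the gene's mean over the 6 libraries. All 76 rows are below their mean in vehicle library 3, and 52, 70 and 71 are above it in CX libraries 1, 2 and 3.

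A total of 17 members had every CX library above every vehicle library, where 19.9% of all genes did, and none had every CX library below, where 19.1% did. Read against that background the count, 17 of 76, is close to what all genes show. Among them were Rpl7a, Rpl8, Rpl10, Rpl10a, Rpl12, Rpl22, Rpl23a, Rpl27, Rpl31 and Rpl36 of the large subunit and Rps6, Rps10, Rps12, Rps14, Rps19 and Rps23 of the small subunit. The 5S particle pair was not among them.

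The 5S particle genes differed between the arms by less than the spread of the libraries. Rpl5, whose protein binds the 5S rRNA directly, had 683, 704 and 686 CPM in CX libraries 1, 2 and 3, against 690, 723 and 634 CPM in vehicle libraries 1, 2 and 3. Rpl11, whose protein contacts MDM2, had 274, 276 and 278 CPM in CX libraries, against 279, 282 and 255 CPM in vehicle libraries. For both genes the CX values lay inside the range of the vehicle libraries, of which vehicle library 3 was the lowest. The log2 fold changes were 0.02 (SE 0.063) for Rpl5 and 0.02 (SE 0.052) for Rpl11, with Benjamini-Hochberg adjusted p of 0.870 and 0.813 in the edgeR quasi-likelihood test.

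Rpl23 and Rpl26, whose proteins have also been described as MDM2 or p53 mRNA binding partners, were likewise close in both arms. Rpl23 had 883, 914 and 905 CPM in CX libraries, against 936, 865 and 825 CPM in vehicle libraries. Rpl26 had 295, 316 and 310 CPM in CX libraries, against 302, 307 and 291 CPM in vehicle libraries. The groups overlapped for both, and the log2 fold changes were 0.04 (SE 0.063) and 0.03 (SE 0.049).

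**Figure D3:**
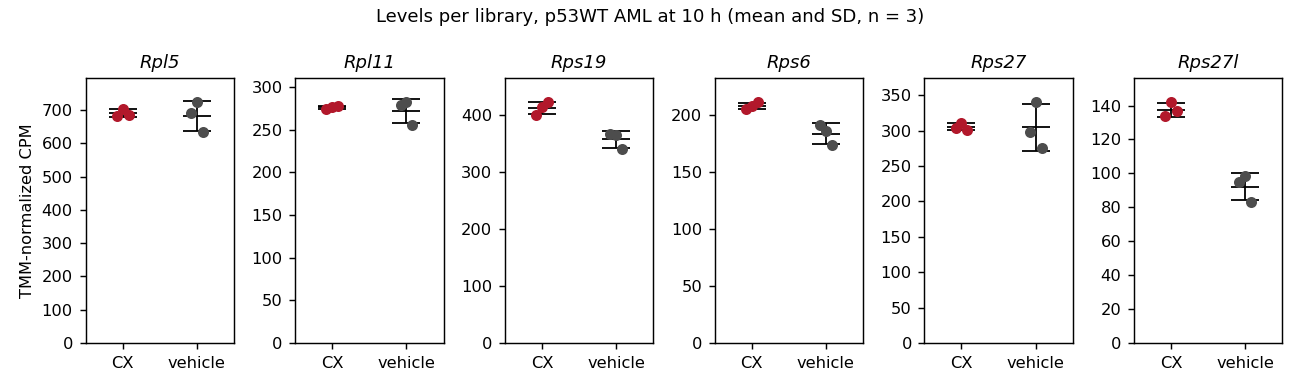
TMM-normalized CPM (y axes, from 0) per library in p53WT AML at 10 h for 5 ribosomal protein genes and the near copy Rps27l, with CX left of vehicle. Bars are the mean and SD (n = 3). The arms overlap for Rpl5, Rpl11 and Rps27 and are apart for Rps19, Rps6 and Rps27l.

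Of Rps27 and its near copy Rps27l, the copy alone passed at 10 h, and the difference between the genes was not tested. Rps27 encodes a small-subunit protein, and Rps27l encodes a protein of nearly the same sequence whose human gene is known as a p53 target. Rps27l is not one of the 76 genes and is given as the near copy of Rps27. Both coding sequences are 252 bases long and differ at 60 of them (76.2% identity), and the genes share no run of 50 bases. Their first 60 coding bases are shown from the GENCODE M21 transcripts (GRCm38), with the bases that differ in capitals. Rps27 lies at chr3:90212522-90213651 on the minus strand and Rps27l at chr9:66946086-66949516 on the plus strand.
Rps27: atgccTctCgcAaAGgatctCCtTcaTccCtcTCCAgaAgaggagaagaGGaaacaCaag
Rps27l: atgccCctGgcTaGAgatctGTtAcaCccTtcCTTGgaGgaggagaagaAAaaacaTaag

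Rps27 had 304, 311 and 301 CPM in CX libraries, against 298, 340 and 276 CPM in vehicle libraries, and the vehicle values reached both above and below those with CX-5461. Rps27l had 134, 142 and 137 CPM in CX libraries, against 94.6, 98.7 and 83.4 CPM in vehicle libraries, with a wide gap between the arms. Rps27l rose to 137 ± 4.06 CPM with CX-5461, against 92.2 ± 7.92 CPM with vehicle (SD, n = 3 each), a log2 fold change of 0.57 (SE 0.070, Benjamini-Hochberg adjusted p = 0.016 in the edgeR quasi-likelihood test). The call of Rps27l was lost without any one CX library, with log2 fold changes of 0.55 to 0.59 and edgeR adjusted p of 0.0871 to 0.119 over the 3 omissions. Nearly all calls were lost in those fits, where 23 to 25 of all genes passed, against 1027 with all 6 libraries. The log2 fold change of Rps27 was 0.00 (SE 0.079, adjusted p = 0.977 in the same edgeR test). Of the 50-base words of Rps27, 98.6% are also in Rps27rt, a near-identical gene, so that the count of Rps27 itself is uncertain.

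Among small-subunit genes, Rps19 had the smallest p of all members. Rps19, the gene most often mutated in Diamond-Blackfan anemia in humans, had 400, 413 and 421 CPM in CX libraries, against 367, 365 and 340 CPM in vehicle libraries. Rps6, which encodes the main ribosomal substrate of the S6 kinases, had 206, 208 and 211 CPM in CX libraries, against 192, 186 and 174 CPM in vehicle libraries. For both genes the lowest CX library was above the highest vehicle library. The log2 fold change of Rps19 was 0.21 (SE 0.053, Benjamini-Hochberg adjusted p = 0.0556 in the edgeR quasi-likelihood test), just above the threshold. That of Rps6 was 0.18 (SE 0.051, adjusted p = 0.0682 in the edgeR quasi-likelihood test). Both passed with DESeq2, at adjusted p of 0.00490 and 0.0264, where 18.2% of all genes passed. In edgeR, Rps19 passed with library totals only (7.05% of all genes passed), with a filter at a mean CPM of 5 (11.3% passed) and without vehicle library 2 (9.74% passed). By the authors' own edgeR results neither was close, with an FDR of 0.354 for Rps19 and 0.451 for Rps6.

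Rps12, which encodes a protein of the small subunit's beak, had 259, 250 and 268 CPM in CX libraries, against 246, 235 and 204 CPM in vehicle libraries. Rpsa, which encodes the laminin receptor and small-subunit protein SA, had 558, 588 and 579 CPM in CX libraries, against 571, 596 and 542 CPM in vehicle libraries. The arms were narrowly apart for Rps12 and overlapped for Rpsa. The log2 fold change was 0.18 (SE 0.075) for Rps12 and 0.01 (SE 0.057) for Rpsa.

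Of the large-subunit genes, Rpl7a, Rpl27 and Rpl31 had the smallest p-values. Rpl7a had 21.97, 23.0 and 22.4 CPM in CX libraries, against 19.5, 20.5 and 19.5 CPM in vehicle libraries. Rpl27 had 142, 143 and 152 CPM in CX libraries, against 136, 132 and 119 CPM in vehicle libraries. Rpl31 had 190, 204 and 205 CPM in CX libraries, against 184, 187 and 171 CPM in vehicle libraries. All 3 had arms that did not overlap and none passed, with log2 fold changes of 0.18 (SE 0.064), 0.17 (SE 0.063) and 0.14 (SE 0.055) and adjusted p of 0.110, 0.114 and 0.130 in the edgeR quasi-likelihood test.

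Rpl22, a large-subunit gene whose protein is dispensable for the ribosome and binds RNA outside it, had 378, 382 and 385 CPM in CX libraries, against 371, 368 and 334 CPM in vehicle libraries. Its paralog Rpl22l1, not one of the 76, averaged 103 ± 3.22 CPM with CX-5461 and 103 ± 9.93 CPM with vehicle (SD, n = 3 each). The log2 fold changes were 0.09 (SE 0.056) for Rpl22 and -0.01 (SE 0.075) for Rpl22l1, and neither passed.

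The stalk genes encode the acidic proteins that recruit translation factors and the scaffold that holds them. Rplp0, the scaffold, had 1581, 1613 and 1663 CPM in CX libraries, against 1591, 1571 and 1437 CPM in vehicle libraries. Rplp1 averaged 839 ± 21.8 CPM with CX-5461 and 770 ± 67.1 CPM with vehicle (SD, n = 3 each), and Rplp2 averaged 535 ± 5.43 CPM with CX-5461 and 521 ± 36.7 CPM with vehicle. The arms overlapped for all 3 stalk genes, and the log2 fold changes of the 3 genes were 0.08, 0.12 and 0.04.

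Per coding length, the members were far from equal although the ribosome holds most of these proteins in equal number. The highest in CX libraries were Rpl41 at 7422 CPM per coding kb, Rps29 at 3320 and Rpl39 at 2886, all of which encode very small proteins. In vehicle libraries they stood at 7607, 3241 and 2689 CPM per coding kb. The lowest in CX libraries were Rpl23a at 9.70 CPM per coding kb, Rpl17 at 21.3 and Rpl7a at 28.1, against 8.12, 19.6 and 24.8 in vehicle libraries. The ratio of highest to lowest was 765 per coding length and 207 per transcript length, where Rplp1 was highest in CX libraries at 1681 CPM per transcript kb and Rpl23a lowest at 8.11.

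Levels tended to be lower for members with more of their sequence repeated elsewhere in the genome. The mouse genome holds many processed pseudogenes of this family, and reads that match several places cannot be assigned to a single one with certainty. A median of 51.5% of a member's 50-base words also occurred in transcripts of other genes and 39 members shared over 50%. Across the 76 genes, Spearman's rho between CPM per coding length at 10 h in p53WT AML and the number of other genes sharing words was -0.60 in CX libraries and -0.60 in vehicle libraries. With the share of words it was -0.47 in CX libraries and -0.46 in vehicle libraries. With the authors' log2 mean CPM, not scaled to length, it was -0.51 for the number of genes and -0.34 for the share of words. All are descriptions over genes of the same libraries. Rpl23a, the lowest member per coding length, shared 85.7% of its words. The sources used here do not say how reads with several matches were counted, so levels of single members are uncertain.

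In p53null AML at 10 h, CX-5461 was not followed by a detectable change in any ribosomal protein gene. By the authors' deposited table, 0 of 76 passed an FDR of 0.05, where 0.187% of all genes passed, and 0 reached an unadjusted p under 0.05, where 6.07% did. The members' median log2 fold change in the authors' deposited table was -0.01, against -0.00 over all genes. In the authors' deposited table, members above 0 numbered 27 and those below 49, from -0.15 for Rpl29 to 0.12 for Rpl27a. In the authors' deposited table Rpl5 stood at -0.00, Rpl11 at -0.04 and Rps27l at 0.03.

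The 6 members with the smallest p in that comparison included 5 with negative and 1 with positive log2 fold changes. Rpl27a, a large-subunit gene, led with 0.12 and an FDR of 0.933 in the authors' deposited table. Rpl18 at -0.10, Rpl29 at -0.15, Rplp0 at -0.07 and Rpl28 at -0.11 were also among them in the authors' deposited table. None passed. In the counts of p53WT AML at 10 h the 5 genes named had log2 fold changes between 0.01 (Rpl28) and 0.08 (Rplp0), and whether the genotypes differed was not tested. Levels differed between these sources. In p53null AML Rpl27a, Rpl18 and Rpl28 had 26.9 to 59.4 CPM, against 542 to 789 CPM on their pseudogene copies. In p53WT AML at 10 h they had 91.6 to 489 CPM, against 45.5 to 122 CPM on copies. Rpl29 had 17.0 CPM and Rplp0 940 CPM in p53null AML.

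At 72 h in p53WT AML, 12 ribosomal protein genes were lower with CX-5461 and none was higher at an FDR under 0.05 in the authors' deposited table. The 12 are 15.8% of the members, and 15.1% of all genes were lower and 16.1% higher at that threshold. Among genes at or above the members' lower quartile of log2 mean CPM, 12.1% were lower. At an unadjusted p under 0.05, 22 members (28.9%) were lower, where 19.6% of all genes were lower. At an FDR under 0.05 the share of all 76 members that fell is thus near that of all genes, while at the unadjusted threshold it is above it. The 12.1% is not matched to the 15.8%, since it covers only genes at a log2 mean CPM of 5.22 or more. All 12 that fell were above that level (the lowest at 7.34), so the share among members above it is higher than 15.8%. In sign, 68 of 76 members were below 0 (89.5%, against 51.3% of all genes), and their median was -0.13, against -0.01 over all genes in the authors' deposited table. The 72 h groups had their own vehicle samples, and 64 members were below 0 at 72 h and above 0 at 10 h in p53WT AML.

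The steepest fall at 72 h was that of Rpl39, which encodes one of the smallest large-subunit proteins at the exit tunnel, with a log2 fold change of -0.37 and an FDR of 0.000257 in the authors' deposited table. Rpl13a, whose protein also silences inflammatory mRNAs when it leaves the ribosome in human cells, had -0.31 with an FDR of 0.000377 in the authors' deposited table. Rpl22 had -0.28 with an FDR of 0.000537, and its paralog Rpl22l1 fell beside it at -0.29 with an FDR of 0.0169 in the authors' deposited table. In the authors' deposited table Rps24, a Diamond-Blackfan anemia gene in humans, had -0.28 with an FDR of 0.00409. Rps14, the small-subunit gene lost in human 5q deletion syndrome, had -0.25 with an FDR of 0.00415 in the authors' deposited table. The large-subunit gene Rpl32 had -0.25 with an FDR of 0.0192 in the authors' deposited table.

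The other 6 that fell in the authors' deposited table were Rps21 (-0.21), Rpl37a (-0.21), Rps3 (-0.20), Rpl5 (-0.22, FDR 0.0309), Rps27a (-0.20) and Rps27 (-0.24). Rps27a encodes ubiquitin fused to a small-subunit protein, and Rps3 lines the mRNA entry channel. The 5S pair was divided by the test, since Rpl5 fell and Rpl11 stood at -0.03 with an FDR of 0.867 in the authors' deposited table. Whether the pair differed was not tested. The log2 mean CPM of Rpl11 was 4.71 in the authors' deposited table for 72 h, against 8.09 in the authors' deposited table for 10 h. That of Rpl5 was 8.92 at 72 h, against 9.42 at 10 h, in the authors' deposited tables.

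By subunit, 6 of 42 large-subunit genes (median -0.07) and 6 of 31 small-subunit genes (median -0.14) fell at 72 h, and none of the 3 stalk genes (median -0.15) passed in the authors' deposited table. The 8 members above 0 were Rpl9, Rpl10, Rpl13, Rpl28, Rpl29, Rplp1, Rps2 and Rps19, and none passed. Rps19 and Rps6, the pair with the smallest p at 10 h, stood at 0.10 (FDR 0.438) and -0.15 (FDR 0.267) in the authors' deposited table for 72 h.

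**Figure D4:**
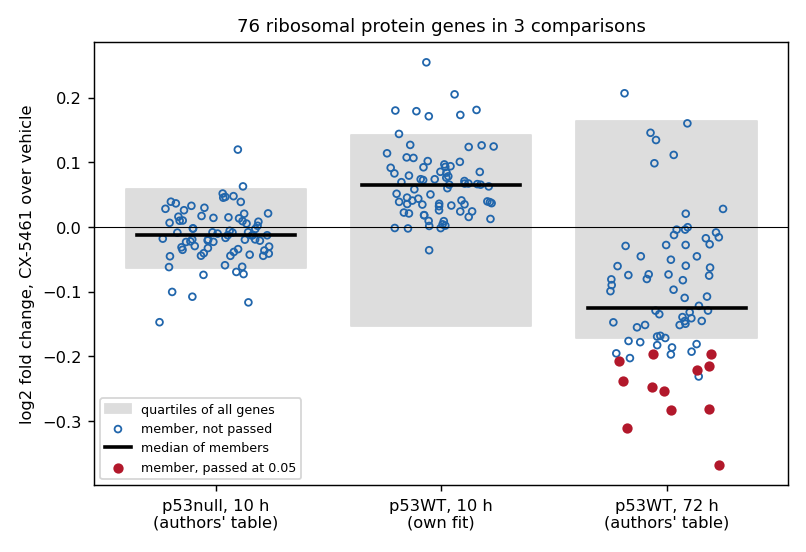
Log2 fold change, CX-5461 over vehicle (y axis), of the 76 genes in p53null AML (10 h) and in p53WT AML at both times. Open points did not pass and red points passed at 0.05, black bars are the members' medians (-0.01, 0.07 and -0.13) and grey boxes span the quartiles of all genes. The 12 red points are all below 0 and all at 72 h.

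The 12 that fell had a log2 mean CPM, not scaled to length, of at least 7.34 in the authors' deposited table, a level that 48 of the 76 members reached. They shared a median of 27.6% of their 50-base words with other genes, from 2.96% for Rps3 to 98.6% for Rps27, and 8 of them shared 50% or less, as did 37 members in all. Marker genes of other cells moved at 72 h too. In the authors' deposited table, 9 of 15 measured erythroid markers (median 1.13) and 10 of 10 neutrophil markers (median 1.12) were higher with CX-5461, and 6 of 10 blast markers were lower and 2 higher. In p53null AML at 10 h none of these markers passed. Their part in the members' fold changes was not tested.

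The level at which a member was counted differed between the tables. The 3 tables were normalized separately, so only the pattern is described, and all levels here are the mean CPM of the authors' deposited tables. The log2 mean CPM at 72 h minus that at 10 h in p53WT AML ranged from -4.80 for Rpsa to 2.52 for Rps27a. It exceeded 1 in size for 37 of 76 members (48.7%), against 4.201% of the 11712 genes in all 3 tables. Spearman's rho between the 2 tables was 0.66 over the members and 0.97 over all shared genes. Between the p53null 10 h and p53WT 10 h tables, 31 members (40.8%) differed by that much, against 14.04% of shared genes. Between the p53null 10 h and p53WT 72 h tables, only 7 did (9.21%), against 11.98%, with a rho of 0.99 over the members.

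In the p53null 10 h and p53WT 72 h tables more counts stood on pseudogene copies of the members. Copies are taken here as annotated pseudogenes that share at least 10% of a member's 50-base words. They held 2.32% of counts in the p53null 10 h table and 1.68% in the p53WT 72 h table, against 0.444% in the p53WT 10 h table. The members themselves held 4.39% in the p53null 10 h table and 3.12% in the p53WT 72 h table, against 3.78% in the p53WT 10 h table. By the authors' deposited tables, Rps6 had a mean of 17.8 CPM and its copies 975 CPM in the p53WT 72 h table, against 196 and 37.4 CPM in the p53WT 10 h table. Rpl11 had 26.2 CPM and its copies 749 CPM in the p53WT 72 h table, against 273 and 94.9 CPM in the p53WT 10 h table. For Rpsa these values were 20.5 and 1179 CPM at 72 h, against 571 and 184 CPM at 10 h.

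**Figure D5:**
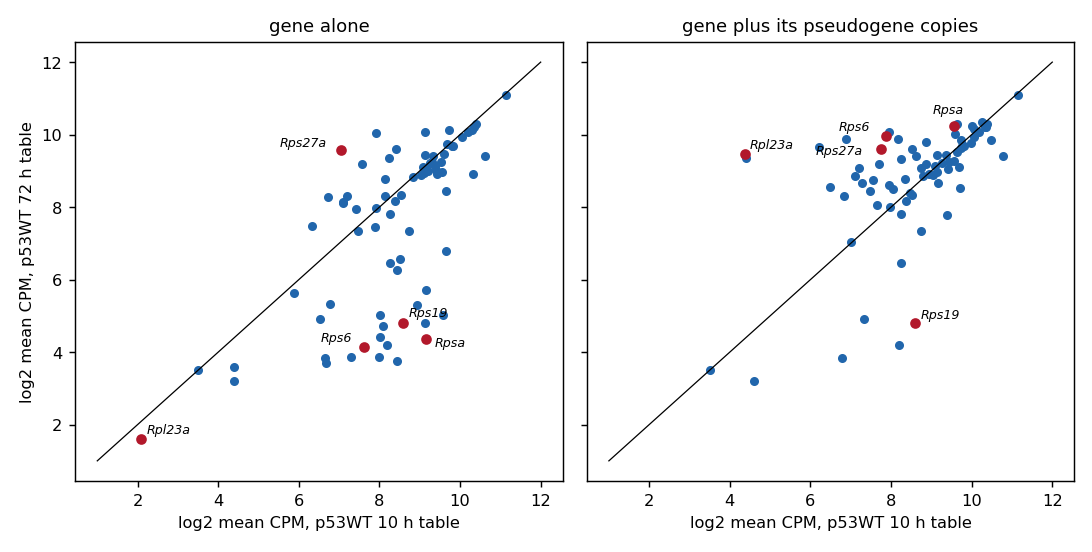
Authors' log2 mean CPM of each of the 76 genes in the p53WT 72 h table (y axes) against the p53WT 10 h table (x axes), for the gene alone (left) and with its pseudogene copies added (right). The line marks equal levels and red points are named. Rps6 and Rpsa lie far below the line alone and above it with their copies, while Rps19 lies below it in both.

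How close a copy can be is shown by 60 coding bases of Rps6 and Rpl11 beside the copy that held the most counts of theirs in the p53null 10 h and p53WT 72 h tables. In the p53WT 10 h table other copies held more. They are from the GENCODE M21 transcripts (GRCm38), with the 1 base that differs in capitals. Rps6 (chr4:86854660-86857412) and the processed pseudogene Gm16409 (chr14:73796544-73797290), both on the minus strand, differ at 10 of 747 coding bases (98.7% identity), and bases 166 to 225 are shown. Rpl11 (chr4:136028265-136053428) and Gm10288 (chr3:146838811-146839347), also on the minus strand, differ at 1 of 534 (99.8% identity), and bases 57 to 116 are shown.
Rps6: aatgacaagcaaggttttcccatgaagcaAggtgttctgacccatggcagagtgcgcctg
Gm16409: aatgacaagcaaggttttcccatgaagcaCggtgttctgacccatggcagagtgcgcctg
Rpl11: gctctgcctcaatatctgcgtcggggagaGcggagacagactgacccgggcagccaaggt
Gm10288: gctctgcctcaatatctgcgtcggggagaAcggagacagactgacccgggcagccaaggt

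In the authors' deposited tables, Gm16409 was counted at a log2 mean CPM of 10.04 in the p53null 10 h table and 9.46 in the p53WT 72 h table, against 0.64 in the p53WT 10 h table. Gm10288 was counted at 9.49 in the p53null 10 h table and 9.10 in the p53WT 72 h table, against 5.13 in the p53WT 10 h table. In the p53null 10 h and p53WT 72 h tables the fold changes of Rps6, Rpl11 and Rpl5 are those of genes that held fewer counts than their copies. The copies had a median log2 fold change of -0.13 at 72 h, 25 above 0 and 103 below, with 21 lower and 2 higher in the authors' deposited table. In p53null AML at 10 h their median was -0.01 with none passing, and in p53WT AML at 10 h it was 0.04. The copies' median thus stood beside that of the members in each table. With copies added, 27 of 76 members still differed by over 1 between the p53WT tables, Rps19 among them. The direction changed: 10 were lower and 17 higher at 72 h with copies, against 27 lower and 10 higher for the gene alone. Rps15a, at -3.99 in both, shared 6.37% of its words in all, so no copy could reach the 10% rule.

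The TOP tract was looked for at the annotated starts, since it is the sequence that the family's mRNAs are known to share. RefSeq promoters (GRCm38.p6) matched 56 of the 76 genes, with 66 starts. The motif was C followed by at least 4 letters that are C or T, on the strand of the gene. It began exactly at the start in 13 of 66 (19.7%), against 2.51% of 32851 promoters of the same table, and within 10 bases of the start in 36 (54.5%), against 30.7%. Of 12 starts of 9 genes that fell at 72 h, 2 (16.7%) had it at the start and 6 (50%) within 10 bases. The windows of 30 bases below, 15 before the start and 15 from it, show 5 starts with the tract, given in capitals, and those of the 5S pair, where the motif does not begin at the annotated start. They lie at chr4:86857353-86857382 (Rps6, minus strand), chr3:90213634-90213663 (Rps27, minus), chr2:180257364-180257393 (Rps21, plus), chr7:4792950-4792979 (Rpl28, plus), chr7:141447636-141447665 (Rplp2, plus), chr4:136053379-136053408 (Rpl11, minus) and chr5:107900513-107900542 (Rpl5, plus).
Rps6: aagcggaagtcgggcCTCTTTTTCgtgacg
Rps27: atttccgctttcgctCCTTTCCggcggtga
Rps21: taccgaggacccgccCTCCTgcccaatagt
Rpl28: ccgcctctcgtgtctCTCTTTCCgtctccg
Rplp2: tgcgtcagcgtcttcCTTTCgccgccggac
Rpl11: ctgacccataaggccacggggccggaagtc
Rpl5: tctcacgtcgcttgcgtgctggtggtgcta

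The genes shown with a tract had both called and uncalled values. At 72 h in the authors' deposited table Rps27 and Rps21 fell, Rps6 and Rplp2 stood at -0.15 and Rpl28 at 0.02, and the last 3 did not pass. A match is a property of the annotated start, and a start that is off by some bases hides a tract.

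At 10 h in p53WT AML some genes passed in a list that joins factors of the 5S particle with Mdm2, Mdm4, Trp53 and the p53 target Cdkn1a. Of 9 genes fixed for the 5S particle and the MDM2 route, 4 rose and none fell in the edgeR quasi-likelihood test, where 3.78% of all genes rose. Cdkn1a, the p53 target that stops the cell cycle, rose to 247 ± 14.9 CPM with CX-5461, against 51.8 ± 3.34 CPM with vehicle (SD, n = 3 each), a log2 fold change of 2.25 (SE 0.071). Mdm2 rose by 0.69 (SE 0.078) and its relative Mdm4 by 0.56 (SE 0.086). Rrs1, which carries the 5S particle into the large subunit, rose by 0.48 (SE 0.061), with values of 146, 143 and 133 CPM in CX libraries, against 107, 95.5 and 101 CPM in vehicle libraries. Its partner Rpf2 did not pass, at 0.20 (SE 0.060). Adjusted p-values of the 4 that rose were 8.2e-05 for Cdkn1a, 0.0134 for Mdm2, 0.0273 for Mdm4 and 0.0186 for Rrs1 in the edgeR test after Benjamini-Hochberg adjustment. Cdkn1a passed under every alternative run. Without any one CX library, edgeR's adjusted p was 0.0697 to 0.105 for Mdm2, 0.104 to 0.158 for Mdm4 and 0.0716 to 0.143 for Rrs1, so that these 3 calls were lost. When the mean log2 CPM of the erythroid markers entered the fit as a covariate, the calls of Mdm4 (adjusted p = 0.401, edgeR) and Rrs1 (0.345) were lost as well. Such losses were general: 23 to 25 of all genes passed without a CX library and 22 with the covariate, against 1027 in the main fit.

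In p53null AML at 10 h none of the 9 passed in the authors' deposited table. At 72 h in p53WT AML, Cdkn1a (1.70) and Mdm2 (0.59) were higher in the authors' deposited table. Nop53, which binds 5S-particle proteins in the nucleolus, was lower at -0.32 in the authors' deposited table.

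Of 14 measured chaperones and loading factors, 3 rose and none fell at 10 h in p53WT AML, where 3.78% of all genes rose. Grwd1, the chaperone of newly made RPL3, had 49.0, 44.8 and 46.9 CPM in CX libraries, against 36.9, 27.3 and 31.8 CPM in vehicle libraries, while its client gene Rpl3 averaged 566 CPM with CX-5461 and 552 CPM with vehicle. Tsr2, the chaperone of RPS26, had 22.6, 21.6 and 22.04 CPM in CX libraries, against 17.7, 15.9 and 16.3 CPM in vehicle libraries, while Rps26 averaged 461 CPM with CX-5461 and 454 CPM with vehicle. Both chaperone genes had arms that did not overlap, and neither client gene passed. The log2 fold changes were 0.55 (SE 0.109) for Grwd1, 0.41 (SE 0.072) for Tsr2 and 0.27 (SE 0.062) for the importin Ipo5, with Benjamini-Hochberg adjusted p of 0.0387, 0.0344 and 0.0468 in the edgeR quasi-likelihood test. All 3 calls were lost without any one CX library, with edgeR adjusted p of 0.126 to 0.173 for Grwd1, 0.117 to 0.171 for Tsr2 and 0.134 to 0.190 for Ipo5. Those of Grwd1 (0.0511) and Ipo5 (0.0565) were also lost without vehicle library 3, and all 3 with the erythroid covariate (0.401 to 0.582, edgeR adjusted p). Of all genes, 23 to 25 passed without a CX library and 22 with the covariate, against 1027 in the main fit. At 72 h Tsr2 was lower at -0.26 in the authors' deposited table, and Tnpo1 (0.44) and Efl1 (0.27) were higher. In p53null AML at 10 h none passed.

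Of 19 regulators of TOP mRNAs and mTORC1, 0 passed at 10 h in p53WT AML in the edgeR quasi-likelihood test, where 8.1% of all genes passed. At an unadjusted p under 0.05, 8 did, where 31.4% of all genes did, and 4 passed with DESeq2, where 18.2% did. In p53null AML 0 of the 19 passed in the authors' deposited table, where 0.187% of all genes passed. In p53WT AML their median log2 fold change was 0.14, and Larp1, the TOP-binding repressor, stood at 0.35 (SE 0.085, adjusted p = 0.0513 by edgeR's quasi-likelihood test after Benjamini-Hochberg adjustment). Larp1 passed without vehicle library 2 (adjusted p = 0.0301, edgeR) and without vehicle library 3 (0.0302). At 72 h Tsc2 (0.27) and Eif4g1 (0.29) were higher and Rptor (-0.28) and Tia1 (-0.39) lower in the authors' deposited table. Of 11 measured transcription factors tied to ribosomal protein promoters, Yy1 rose at 10 h in p53WT AML by 0.19 (SE 0.043, adjusted p = 0.0444 by edgeR's quasi-likelihood test after Benjamini-Hochberg adjustment) and none fell. The call of Yy1 was lost without any one CX library (adjusted p of 0.141 to 0.186, edgeR), without vehicle library 3 (0.0515) and with the erythroid covariate (0.530). Only 23 to 25 of all genes passed without a CX library and 22 with the covariate, against 1027 in the main fit. At 72 h Zbtb7a was higher (0.57) and Myc, a driver of ribosomal protein transcription, lower (-0.77) in the authors' deposited table.

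Of 8 measured relatives and ribosomal proteins under other names, Rps27l alone passed at 10 h in p53WT AML with all 6 libraries. At 72 h Rps27l stood at 0.10 with an FDR of 0.427 in the authors' deposited table. Rpl22l1 and Rpl36al (-0.19) were lower in the authors' deposited table.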

How the data were processed

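The authors deposited 3 tables, 1 for each genotype and time. Per the file headers, each gives the authors' edgeR output per gene, namely a log2 fold change, a log2 mean CPM, a p-value and an FDR. That of p53WT AML at 10 h adds the deposited raw counts of 6 libraries. CASAVA 1.8.2, Bowtie, HTSeq, edgeR and the mm9 build are named per the submitters' processing notes, without settings. Count columns name the arm and a number that is not tied to a sample title, so each was assigned to its arm. The labels name no sequencing batch, and the library kit is TruSeq version 2 per the labels.

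TMM factors scaled the counts, and edgeR 4.0.16 in R 4.3.3 fitted a quasi-likelihood model with treatment alone, which leaves 4 residual degrees of freedom. Tests were two-sided. Benjamini-Hochberg adjustment ran over all 12679 genes, with a threshold of 0.05. CPM values are TMM-normalized, and the log2 deviations per library were taken from them without a prior count. A prior count of 2 on the log2 scale was used for the erythroid covariate and for the correlations between columns. The script was tested on simulated data. The planned fits of the other 2 comparisons could not be run without counts, so the authors' values were taken, with no SD or SE. The authors' fold changes run CX-5461 over vehicle where counts allowed a check (Pearson's r of 1.00 with the fitted ones), and the same was taken elsewhere.

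Symbols were found for 12237 IDs (p53WT, 10 h), 12366 (p53null, 10 h) and 12362 (p53WT, 72 h). Shared sequence was counted in words of 50 bases over GENCODE M21 transcripts (GRCm38), from which coding lengths were also taken, since no protein table was used here. The sources used here do not say whether counting used strand. Members named are the 5S pair, 8 genes of known roles, the 6 with the smallest p in each comparison, and the highest and lowest per coding length. Genes that are no members are named where they passed in a list, Rps27l and Rpl22l1 always. Larp1, Rpf2, Rpl3, Rps26 and the genes listed by count were named after their values were seen. The members and lists were chosen with earlier results of these data known. Same-numbered CX and vehicle columns correlated at 0.301, 0.106 and 0.027 in their deviations from the arm means. Those with different numbers correlated at -0.203 to 0.093. Whether the numbers pair the libraries is not settled by these values, and the main fit did not pair them. Alternatives were other normalizations, filters and tests (DESeq2 1.42.0, limma-voom with limma 3.58.1), an erythroid covariate, each library left out, other FDR thresholds and, chosen after seeing the data, adding pseudogene copies to their member and dividing by transcript length. Results on some single genes are not reported here.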

Additional observations from a re-analysis of the deposited data

How the results depend on the processing

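No member passed at 10 h in p53WT AML under RLE size factors, TMM without the members, no filter, limma-voom, the edgeR exact test, the robust fit, the erythroid covariate or with pseudogene copies added. Rps19 alone passed (1 member) with library totals only (adjusted p = 0.0418, edgeR), with a mean CPM of at least 5 (0.0490) and without vehicle library 2 (0.0468), and 2 passed with DESeq2. Leaving out each library in turn gave 0 to 1 members passed, medians of 0.02 to 0.09 and 48 to 75 positive members. The median was 0.20 with the erythroid covariate, and all 76 members were positive. With the replicate block, 0 members passed and the median was 0.07, while 1536 of all genes passed, against 1027 without it. Whether the column numbers pair the libraries is not known.

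At 72 h the members that fell were 5 at an FDR of 0.01, 21 at 0.1 and 22 at an unadjusted p of 0.05. At the last, 19.6% of all genes were lower. The shares of all genes at an FDR of 0.01 and 0.1 are not given here, so those counts cannot be read against a background. The ratio of highest to lowest level per length was 207 with transcript length.

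Among named genes, 712 values kept direction and call, 11 newly passed, 39 no longer passed and 29 changed sign, none of which had passed. All 39 belong to genes outside the 76, 24 of them without a CX library. Yy1 also lost its call with the replicate block (adjusted p = 0.0549, edgeR). Leaving out each library in turn gave ranges of -0.032 to 0.061 for Rpl5, -0.022 to 0.047 for Rpl11, -0.062 to 0.090 for Rps27, -0.022 to 0.045 for Rpsa, -0.030 to 0.069 for Rpl28, -0.015 to 0.076 for Rpl13a, -0.023 to 0.11 for Rps24, -0.023 to 0.072 for Rpl32, -0.011 to 0.064 for Rps29, -0.020 to 0.071 for Rplp2, -0.0078 to 0.068 for Rpl3 and -0.017 to 0.069 for Rps26. For each of these the lowest value was that without vehicle library 3. Rps27 was also below 0 with RLE (-0.00083), with a mean CPM of at least 5 (-1.21e-05) and with DESeq2 (-0.00088), and Rpl28 with copies added (-0.00365). The ranges were -0.13 to 0.030 for Rpl41 and -0.085 to 0.035 for Rpl22l1, whose values were also above 0 with library totals only (0.00748 for Rpl41, 0.0341 for Rpl22l1) and the erythroid covariate (0.272 and 0.218). The cause was not tested. Without any one CX library, 23 to 25 of all genes passed, against 1027 with all 6 libraries. The other 2 comparisons have no values per library here, so leaving one out was not possible.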
